A study of Saccharomyces cerevisiae with 14 samples.

Results

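The proton pumps of Saccharomyces cerevisiae were followed as 10 genes picked by name: PMA1, the pump of the plasma membrane, and 9 genes for subunits of the vacuolar ATPase (V-ATPase). The array table listed 6040 open reading frames (ORFs), and all 10 genes had a value on every slide. EPY330, which makes artemisinic acid, was compared with EPY338, in which the plant P450 that oxidizes amorphadiene (AMO) was inactivated by a cysteine-to-glycine change. Both strains were MATα his3Δ1 leu2Δ0 derivatives of BY4742 with repaired lys2 and ura3. They also shared a truncated HMG-CoA reductase (tHMGR, integrated at 2 sites), upc2-1 and ERG20 under GAL1 promoters, and ERG9 under the MET3 promoter. EPY330 carried ADS, AMO and CPR on pESC-Leu2d, and EPY338 carried the same plasmid with the inactivated AMO (AMO-KO). The plasmid genes were driven by galactose promoters, and both strains were induced in the galactose medium YPG.

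RNA was taken 24, 48 and 72 h after induction, and the RNA of 5 clones per strain was mixed into 1 pool. On each slide EPY330 cDNA (Alexa555) and EPY338 cDNA (Alexa647) competed for the same spots, and slides are lettered A to D for the 4 of 24 h and A to E for the 5 of each later time. All values are log2(EPY330/EPY338), in which a transcript more abundant in EPY330 is positive. The direction rests on the slide titles, which name EPY338 over EPY330. No file header states the numerator, so headers and titles alone leave the sign of every value likely rather than settled. The paper reports SPI1 and PPA1 (VMA16) as higher in the producer. With the sign used here, both were higher in EPY330 at 24 h (1.81-fold and 2.21-fold). Slides of 1 time point are repeats of a single hybridization pair of pools, so that SDs and p-values reflect technical error and leave out how clones or cultures vary. Dyes were not swapped, and a dye effect of a spot cannot be told apart from the strain difference at a time point. The table holds ratios without intensities, and its number of slides limits the precision. For 24, 48 and 72 h, ORFs had a median SD between slides of 0.264, 0.382 and 0.253. No row of the table is named for AMO, so the inactivated gene could not be followed.

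Yeast acidifies its surroundings and its vacuole with separate machines. Pma1 is a single-chain P-type ATPase that exports protons across the plasma membrane and sets the gradient that nutrient symporters use. The V-ATPase is a rotary complex. Its cytosolic V1 sector hydrolyzes ATP, and its membrane sector Vo carries protons into the vacuole, Golgi and endosomes. The sectors separate reversibly when glucose runs out. Weak acids, such as artemisinic acid, can enter cells undissociated and release protons in the cytosol, and both pumps are known to restore cytosolic pH in such cells.

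Most of the 10 means were positive at 24 and 48 h and negative at 72 h, while few of them passed a test at a single time point. The 10 genes had a median of means of 0.47, 0.46 and -0.13 at 24, 48 and 72 h, beside a median over the ORFs of -0.01, -0.02 and -0.02. Positive means were found for 8, 9 and 3 of the 10 genes at 24, 48 and 72 h, beside 49.5%, 48.6% and 48.7% of the ORFs. VMA16 stood highest at 24 and 48 h, VMA5 lowest at 72 h, and VMA2 was near 0 early and, as deposited, highest at 72 h, although its 72 h mean was below 0 (-0.11) once a trend along the table was removed.

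**Figure D1:**
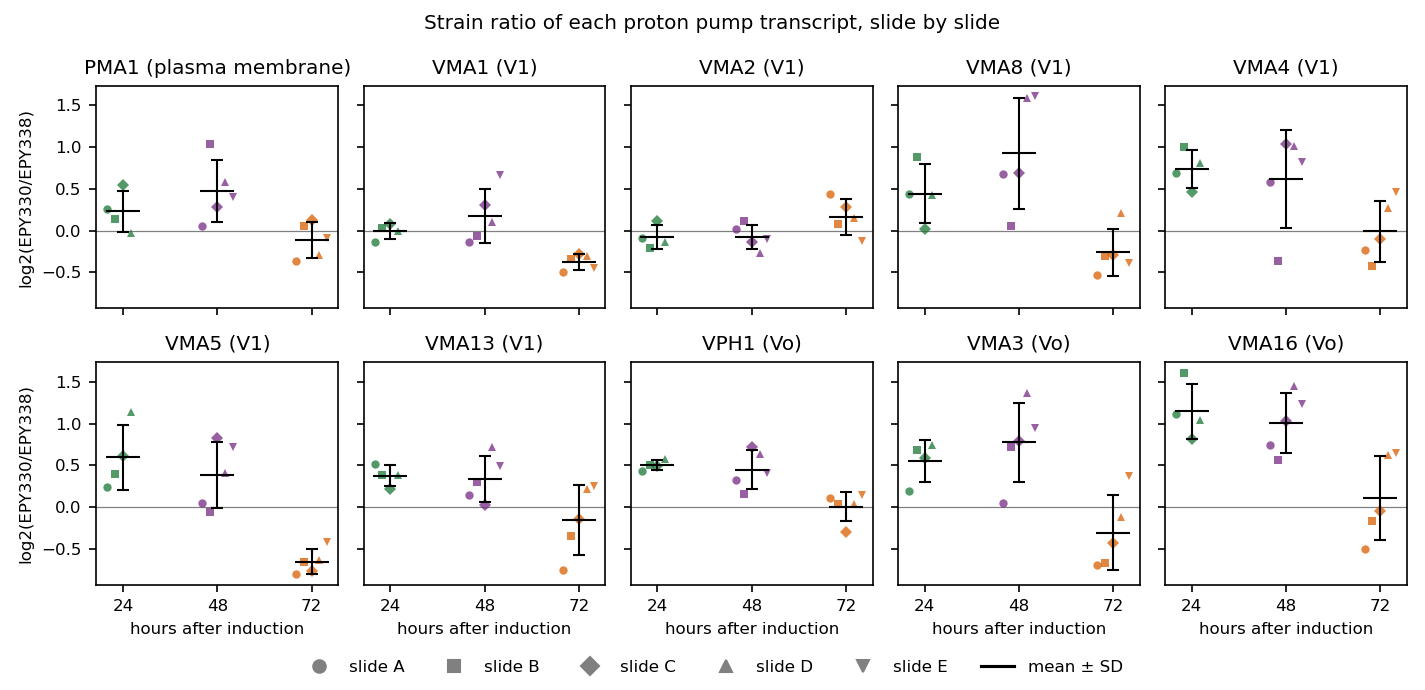
Log2(EPY330/EPY338) of each of the 10 proton pump genes (vertical axis) at 24, 48 and 72 h after induction (horizontal axis), 1 symbol per slide, with the mean ± SD in black (n = 4, 5 and 5). VMA16 lies above 0.5 on all 24 and 48 h slides and between -0.50 and 0.64 at 72 h, and VMA5 is below 0 on all 72 h slides.

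One-class SAM, a permutation test that was run over all sign flips of the slides (16 at 24 h, 32 at 48 and 72 h), was applied to every ORF with at least 3 slides at a median false discovery rate (FDR) of at most 0.2%, and a gene past this limit is referred to as called. At 24 h, 2 of the 10 members were called, VMA16 and VMA4, both higher in EPY330, against 11.6% of 5861 ORFs called higher. At 48 h, 3 members were called higher, VMA16, VMA8 and VMA3, against 12.8% of 5721 ORFs. At 72 h, 1 member was called, VMA5, which was lower in EPY330, against 8.75% of 5945 ORFs called lower. Shares of 2, 3 and 1 in 10 members are near these backgrounds. With limma on the same slides and a limit of 0.002 on the adjusted p, VMA16 (adjusted p = 0.000122) and VMA4 (adjusted p = 0.00103) were again called at 24 h (background 11.2%), and VMA5 (adjusted p = 0.00116) at 72 h (background 4.02%). At 48 h limma called 0 of 10 members (background 4.44%), although 5 were higher at an adjusted p under 0.05, against 18.8% of the ORFs, and 6 at an unadjusted p under 0.05, against 23.6%. At the same limit of 0.05 on the adjusted p, 7 members were higher at 24 h and 2 were lower at 72 h. The share of all ORFs past that limit was not counted for 24 and 72 h, so these counts cannot be read as a result about the members.

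**Figure D2:**
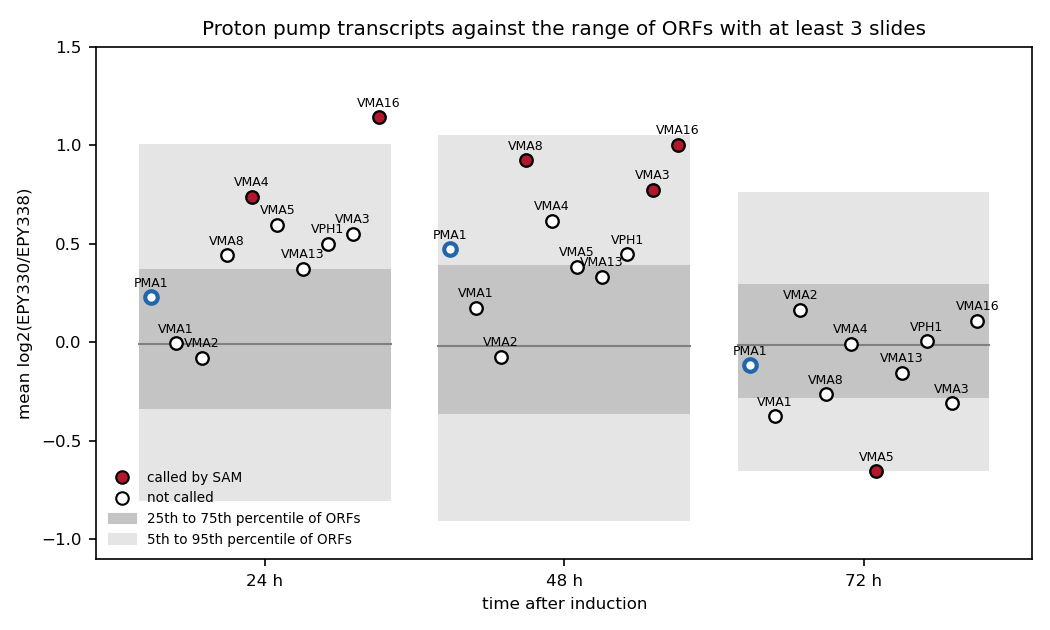
Mean log2(EPY330/EPY338) of the 10 genes (circles, filled where called by SAM, PMA1 ringed in blue) at each time point, over the 25th to 75th percentile (dark grey) and the 5th to 95th percentile (light grey) of all ORFs with at least 3 slides. At 24 h VMA16 (1.14) lies above the 95th percentile (1.01), and at 72 h VMA5 (-0.65) lies at the 5th percentile (-0.65).

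PMA1 (YGL008C) encodes the major plasma membrane H+-ATPase. Its ratios at 24 h were 0.25, 0.14, 0.55 and -0.03 on slides A to D. At 48 h they were 0.06, 1.04, 0.28, 0.59 and 0.41 on slides A to E, and at 72 h they were -0.37, 0.06, 0.12, -0.30 and -0.09. All 48 h slides were positive but they overlapped with both other time points, and the highest value came from slide B. The means were 0.23 ± 0.25, 0.47 ± 0.37 and -0.11 ± 0.21 (SD), and PMA1 was not called by SAM at any time point. Removal of a drift that runs along the table when ORFs are sorted by name (the running median of neighboring rows, called the trend along ORF names) left 0.04, 0.18 and -0.14, so most of the positive mean of PMA1 at 24 and 48 h was shared with the ORFs around it in the table. PMA2, a close paralog that is usually scarcely expressed, averaged -0.18 ± 0.63, -0.09 ± 0.33 and 0.13 ± 0.36 and was not called. The spots may not separate the paralogs, and cross-hybridization was not tested.

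VMA1 (YDL185W) encodes the catalytic A subunit of V1, and VMA2 (YBR127C) the nucleotide-binding B subunit that alternates with it in the V1 ring. VMA1 ratios were -0.14, 0.04, 0.08 and -0.0043 at 24 h, then -0.14, -0.06, 0.30, 0.10 and 0.67 at 48 h and -0.49, -0.34, -0.28, -0.31 and -0.44 at 72 h. Every 72 h slide lay below every slide of the earlier time points, and the 72 h mean of -0.37 ± 0.09 was called only at an FDR of 1%. With the trend along ORF names removed the 72 h mean was -0.19, and its highest slide (-0.02) overlapped the lowest of 24 h (-0.11) and of 48 h (-0.08). VMA2 ratios were -0.09, -0.21, 0.12 and -0.14 at 24 h, then 0.02, 0.11, -0.13, -0.26 and -0.10 at 48 h and 0.44, 0.08, 0.28, 0.15 and -0.12 at 72 h. The 3 sets of VMA2 slides overlapped, with means of -0.08 ± 0.14, -0.07 ± 0.14 and 0.17 ± 0.21, and the 72 h mean was -0.11 with the trend along the ORF names removed. The genes of the paired ring subunits thus had 72 h values of opposite sign as deposited and of the same sign after the trend was taken out.

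The other V1 members encode the stalks and the regulatory subunits. VMA8 (YEL051W), for the D subunit of the central rotor, had 0.44, 0.88, 0.02 and 0.43 at 24 h, 0.68, 0.05, 0.69, 1.58 and 1.61 at 48 h, and -0.54, -0.30, -0.30, 0.21 and -0.39 at 72 h. Its 48 h mean of 0.92 ± 0.67 (1.90-fold) was called, though slides D and E were far above slide B, and the call was lost without any 1 of slides C, D or E. VMA4 (YOR332W), for the E subunit of the peripheral stalks, had 0.69, 0.999, 0.46 and 0.81 at 24 h, 0.58, -0.37, 1.04, 1.02 and 0.82 at 48 h, and -0.23, -0.43, -0.10, 0.27 and 0.46 at 72 h. VMA4 was positive on all 24 h slides, where the mean of 0.74 ± 0.23 (1.67-fold) was called. The call was lost without slide A, B or D, and at 48 h slide B alone was negative, without which the mean was 0.86 and called.

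VMA5 (YKL080W) encodes the C subunit, which links the stators to the membrane sector and leaves the complex when V1 detaches. Its ratios were 0.24, 0.40, 0.61 and 1.14 at 24 h, 0.05, -0.06, 0.82, 0.40 and 0.72 at 48 h, and -0.81, -0.65, -0.77, -0.63 and -0.41 at 72 h. The 72 h slides were all negative and lay apart from both earlier sets. The 72 h mean of -0.65 ± 0.15, which is 1.57-fold lower in EPY330, was called in SAM, but not when slide A, B, C or D was left out. VMA13 (YPR036W), for the H subunit that silences ATP hydrolysis in free V1, averaged 0.37 ± 0.12 at 24 h, 0.33 ± 0.28 at 48 h and -0.15 ± 0.42 at 72 h. It was positive on all 9 slides of 24 and 48 h, ranged from -0.76 on slide A to 0.25 on slide E at 72 h, and was not called.

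The Vo members encode the parts that handle the proton. VPH1 (YOR270C) encodes the vacuolar form of the large a subunit, which forms the proton half-channels. Its ratios were 0.44, 0.50, 0.49 and 0.58 at 24 h, 0.33, 0.16, 0.72, 0.63 and 0.41 at 48 h, and 0.11, 0.03, -0.29, 0.04 and 0.15 at 72 h. VPH1 had the smallest spread of the members at 24 h (mean 0.50 ± 0.06), and all of its 72 h slides lay below all earlier ones, without a SAM call at any time point. SAM called VPH1 at 24 h with the trend removed and at 48 h without slide B. With the trend removed the 72 h slides (highest 0.22) still lay below those of 24 h (lowest 0.32) but overlapped those of 48 h (lowest -0.08). STV1, the gene of the Golgi and endosome form of the same subunit and a relative in sequence, averaged 0.19 ± 0.43, -0.19 ± 0.28 and 0.14 ± 0.20 and was not called either.

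VMA3 (YEL027W) encodes the c proteolipid, most copies of the proton-carrying ring. Its ratios were 0.19, 0.68, 0.58 and 0.75 at 24 h, 0.05, 0.72, 0.79, 1.36 and 0.95 at 48 h, and -0.70, -0.67, -0.44, -0.11 and 0.38 at 72 h. All 9 early slides were positive and 4 of 5 slides at 72 h were negative. The 48 h mean of 0.78 ± 0.48 (1.71-fold) was called, but not without slide C, D or E, nor with the trend along ORF names removed (0.54).

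VMA16 (YHR026W, also known as PPA1) encodes the c'' proteolipid, the larger ring subunit. Its ratios were 1.11, 1.60, 0.82 and 1.04 at 24 h, 0.75, 0.57, 1.02, 1.45 and 1.23 at 48 h, and -0.50, -0.17, -0.04, 0.62 and 0.64 at 72 h. Every early slide was positive, whereas 72 h slides A to C were negative and D and E positive. The means were 1.14 ± 0.33 (2.21-fold), 1.005 ± 0.36 (2.01-fold) and 0.11 ± 0.51, and VMA16 was the 1 member called at both early time points. The 24 h call was kept without any 1 slide and with the trend removed (1.46), and the 48 h mean was 1.28 with the trend removed. The 48 h call was kept without any 1 slide, but not with missing values of other ORFs left as gaps nor by limma (adjusted p = 0.00211). VMA11 (YPL234C), the gene of the third proteolipid, averaged 0.12 ± 0.16 at 24 h and -0.13 ± 0.10 over 3 slides at 72 h. The proteolipid genes are related in sequence, and the share of signal that their spots take from each other was not tested.

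Slides differed for the members as a set. At 24 h, 7 to 10 members were above 0 on each slide, and at 48 h 7 to 9 were. At 72 h, 2, 3 and 2 members were above 0 on slides A, B and C, but 6 on slide D and 5 on slide E. The median of the members on the 72 h slides was -0.50, -0.32, -0.21, 0.09 and 0.03 from A to E, while the median of all ORFs on these slides lay between -0.02 and 0.01. At 48 h the median of the members was 0.10 on slide A and 0.14 on slide B, against 0.67 to 0.71 on slides C to E. Within a time point, Pearson's r of 2 slides over the ORFs, which are no independent replicates, lay between 0.364 and 0.885.

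The order of the members was resolved at few places. At 24 h VMA16 exceeded the next gene, VMA4, on 4 of 4 slides (by 0.41 ± 0.16, SD of the difference within slides). Between every other pair of neighbors in the 24 h order the sign of the difference varied over the slides, and no pair of neighbors in the 48 h order, VMA16 and VMA8 included, kept 1 sign on all 5 slides. At 72 h the difference of VMA1 over VMA5, at the low end, was 0.28 ± 0.19 and held on 4 of 5 slides. Among the members, the median of the 3 Vo genes exceeded that of the 6 V1 genes on 4 of 4 slides at 24 h (by 0.29 ± 0.14), on 5 of 5 at 48 h (0.43 ± 0.25) and on 3 of 5 at 72 h (0.12 ± 0.31). This order does not extend to the whole sector. At 24 h the Vo genes VMA11 (0.12) and STV1 (0.19) lay below the V1 median of 0.41, and VMA6 (1.19) lay above it. The comparison was not made with the trend along ORF names removed. All of these values are ratios to EPY338 and not transcript levels, which the deposited values do not give.

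In the mean over the 3 time points, with 1 value per time point in limma, 0 of 10 members had an adjusted p under 0.05 (background 11.5% of 5652 ORFs higher), and 2 were higher at an unadjusted p under 0.05, against 20.8% of the ORFs. VMA16 was highest, with 0.75 ± 0.22 (SE, adjusted p = 0.0608). VMA4 followed with 0.45 ± 0.18 (SE, adjusted p = 0.118). With the trend along ORF names removed, VMA16 was at 1.04 and passed the threshold. Leaving out 72 h slide A, B or C also took it past (lowest adjusted p = 0.0355).

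The differences between time points asked whether the strain ratio itself changed. A dye effect that is constant for a spot drops out of them. For 48 h minus 24 h, limma on all slides called 0 of the 10 members, with 0 at an unadjusted p under 0.05 (background 0.991% in either direction), and the median difference was -0.02. Differences ranged from -0.21 ± 0.22 for VMA5 to 0.48 ± 0.28 for VMA8 (SE).

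For 72 h minus 48 h, 7 of the 10 members fell, against 16.3% of 5652 ORFs. The 7 were PMA1, VMA1, VMA8, VMA5, VPH1, VMA3 and VMA16, and the median difference over the 10 genes was -0.61, beside 0.01 over all ORFs. VMA8 fell by 1.19 ± 0.27 (adjusted p = 0.00529), VMA3 by 1.08 ± 0.24 (adjusted p = 0.00505), VMA5 by 1.04 ± 0.20 (adjusted p = 0.00252) and VMA16 by 0.90 ± 0.24 (SE, adjusted p = 0.0122). These 4 kept an adjusted p under 0.05 without any 1 slide. PMA1 fell by 0.59 ± 0.19 (adjusted p = 0.0282), VMA1 by 0.55 ± 0.16 (adjusted p = 0.0181) and VPH1 by 0.44 ± 0.15 (SE, adjusted p = 0.0366). PMA1 and VMA1 were no longer past the threshold with the trend along ORF names removed, where they fell by 0.33 and 0.37. PMA1 was also lost without 48 h slide D or 72 h slide A or D (highest adjusted p = 0.0781), VMA1 without 48 h slide E (adjusted p = 0.0516) and VPH1 without any 1 of 7 slides, namely C, D and E at 48 h and A to D at 72 h (highest adjusted p = 0.102). VPH1 was lost as well with the replicate letter as a block (adjusted p = 0.0569) and with the slides of these 2 time points alone (adjusted p = 0.0705).

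The remaining 3 members did not pass. VMA4 differed by -0.62 ± 0.25 (adjusted p = 0.0636), VMA13 by -0.49 ± 0.20 (adjusted p = 0.0690) and VMA2 by 0.24 ± 0.15 (SE, adjusted p = 0.240). VMA4 passed once 48 h slide B or 72 h slide E was left out, and VMA13 once 72 h slide D or E was. Read slide by slide, 3 of the 10 members, VMA1, VMA5 and VPH1, had all 72 h slides below all 48 h slides, as had 6.74% of the ORFs with a value on each of these slides. With the trend removed this separation was lost for VMA1 and VPH1, and VMA5 and PMA1 were separate, against 8.56% of the ORFs.

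**Figure D3:**
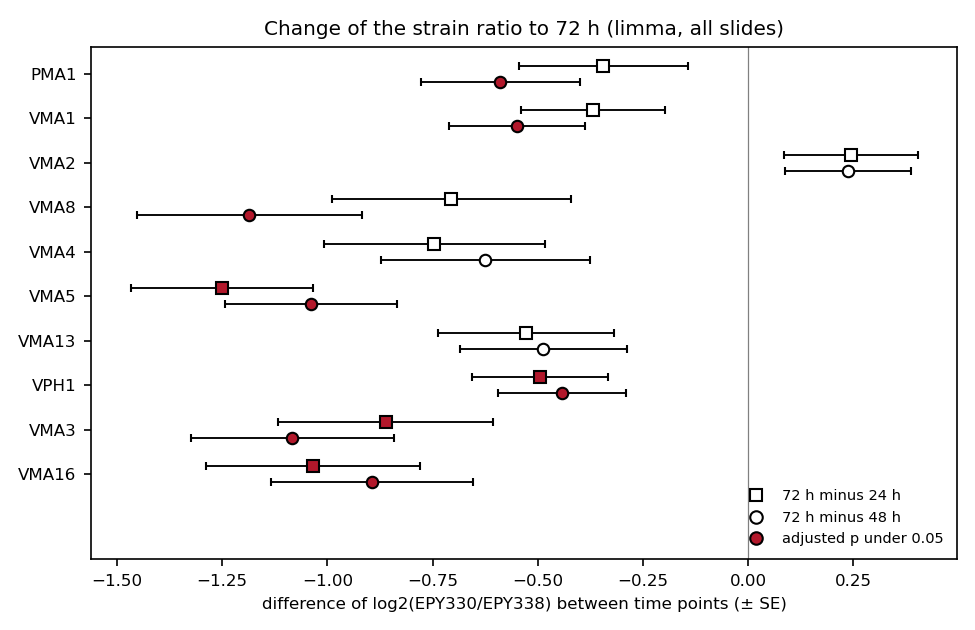
Difference of log2(EPY330/EPY338) between time points (horizontal axis, ± SE from limma) for each of the 10 genes (vertical axis). Squares give 72 h minus 24 h, circles give 72 h minus 48 h, and red symbols have an adjusted p under 0.05. Of the 20 differences, 18 lie below 0 and both of VMA2 lie above it.

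For 72 h minus 24 h, 4 of 10 members fell, against 9.16% of the ORFs. They were VMA5 with a drop of 1.25 ± 0.22 (adjusted p = 0.00344), VMA16 with 1.03 ± 0.25 (adjusted p = 0.0166), VMA3 with 0.86 ± 0.26 (adjusted p = 0.0361) and VPH1 with 0.50 ± 0.16 (SE, adjusted p = 0.0483). The median difference over the members was -0.62, beside 0.01 over all ORFs, and 8 members were lower at an unadjusted p under 0.05, against 17.7% of the ORFs. Of the 4, VMA5 kept the call without any 1 slide. VMA16 was lost without 24 h slide B or 72 h slide A or B (highest adjusted p = 0.0784), and VMA3 without 24 h slide B, C or D or 72 h slide A, B or C (highest adjusted p = 0.112). VPH1 was lost without any 1 of the 4 slides at 24 h and without 7 of the 10 later slides (highest adjusted p = 0.132), and VPH1 and VMA3 were lost with the trend removed. VPH1 was also lost with the replicate letter as a block (adjusted p = 0.0614).

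PMA1 (-0.34 ± 0.20, adjusted p = 0.245) and VMA1 (-0.37 ± 0.17, adjusted p = 0.144) did not pass for 72 h minus 24 h. VMA8, VMA4 and VMA13 had differences of -0.71, -0.75 and -0.53 with adjusted p between 0.0645 and 0.0958. With the slides of these 2 time points alone, VMA8 (adjusted p = 0.0186) and VMA4 (adjusted p = 0.0144) passed in limma. VMA8 and VMA4 also passed without 48 h slide B. VMA4 and VMA13 passed without 72 h slide E and with the replicate letter as a block. All 72 h slides lay below all 24 h slides for 4 of the 10 members, VMA1, VMA5, VPH1 and VMA16, as for 11.3% of the ORFs. With the trend removed VMA1 overlapped and VMA13 was separate beside the other 3, against 12.6% of the ORFs. Both differences to 72 h share the 72 h slides, so that they are not separate evidence.

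Among 4928 other ORFs with a value on every slide, the profile of VMA16 over the 14 slides was most like those of CAP1 (Pearson's r = 0.975), which encodes an actin capping protein, SHR3 (r = 0.952), for an amino acid permease chaperone of the endoplasmic reticulum, and RPL4B (r = 0.951), for a ribosomal protein. The profile of PMA1 was most like those of ADD37 (r = 0.893), ITR2 (r = 0.879), for a myo-inositol transporter, and LOG1 (r = 0.864). With the profile of VMA16, those of the other V-ATPase members except VMA2 had r between 0.685 (VMA1) and 0.899 (VMA13), and VMA2 had -0.879. Among the 4928 ORFs these 7 ranked between 89 (VMA13) and 858 (VMA1) in likeness to VMA16, and many ORFs outside the complex were closer to it. The profile of PMA1 was less like theirs, with its highest r to VMA3 (0.624), its lowest to VMA2 (-0.291) and 0.394 to VMA16. These correlations were computed on the values as deposited and not with the trend along ORF names removed. Once it was removed, VMA2 averaged -0.14, -0.03 and -0.11 at 24, 48 and 72 h, against -0.08, -0.07 and 0.17 as deposited. The slides share the pools of their time point, and these correlations are a description.

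Of 7 further subunit genes of the V-ATPase, 5 were in the table, and VMA9 and VMA10 were not analysed here. The list had medians of 0.19, 0.12 and -0.13 at 24, 48 and 72 h, beside 0.47, 0.46 and -0.13 for the members. VMA6 (YLR447C), for the d subunit that couples the rotor to the proteolipid ring, was called higher in EPY330 at each time point (at 72 h, 12.8% of all ORFs were), with 1.19 ± 0.25 at 24 h, 1.25 ± 0.48 at 48 h and 0.64 ± 0.29 at 72 h. Its values ran from 0.995 to 1.54, from 0.70 to 1.77 and from 0.23 to 0.94 and were thus positive on all 14 slides, and the mean over the time points was 1.03 (adjusted p = 0.0246). VMA7 (YGR020C), for the F subunit of the rotor, averaged 0.31 ± 0.23, 0.28 ± 0.21 and -0.22 ± 0.12 without a call. VMA6 at 72 h minus 48 h fell by 0.61 (adjusted p = 0.0451) and VMA7 by 0.50 (adjusted p = 0.0239), which were 2 of the 4 genes tested, against 16.3% of all ORFs lower. The 4 genes had a median of -0.41. VMA7 alone of the 4 passed for 72 h minus 24 h, with a drop of 0.53 (adjusted p = 0.0420), against 9.16% of all ORFs lower.

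Of 8 genes for assembly or disassembly of the V-ATPase, 7 were in the table, and SKP1 was not analysed here. VMA12 (YKL119C, named VPH2 in the annotation), an assembly factor of the endoplasmic reticulum, was called higher at 24 h with 1.02 ± 0.36 and averaged 0.27 ± 0.71 at 72 h, and it had no 48 h values. VMA21 (YGR105W), which escorts Vo out of the endoplasmic reticulum, was called lower at 24 h, as were 5.49% of all ORFs, with -1.39 ± 0.48 (3 slides, the fourth filled in for SAM) and at 72 h with -0.93 ± 0.27 (4 slides, the fifth filled in). At 48 h it averaged -0.47 ± 0.93 over 3 slides, and its mean over the time points was -0.93 (adjusted p = 0.0305). RAV2 (YDR202C), of the RAVE complex that rejoins V1 to Vo, was called higher at 48 h (0.63 ± 0.19) and lower at 72 h (-0.78 ± 0.47). RAV2 was the 1 of 5 tested genes of this list that changed for 72 h minus 48 h (16.3% of all ORFs were lower), with a drop of 1.40 (adjusted p = 0.00231), while RAV1, of the same complex, had a difference of 0.43 (adjusted p = 0.140). The median of the 5 differences was -0.42.

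Of 8 genes that act on or resemble PMA1, all were in the table, and PMP2 had only 2 values. PMP1 (YCR024C-A), a small membrane proteolipid bound to Pma1, was called higher with 1.69 ± 0.17 at 24 h and 1.58 ± 0.28 at 48 h and averaged 0.49 ± 0.42 at 72 h, positive on all 14 slides. Its mean over the time points was 1.25 (adjusted p = 0.0296). PTK2, a kinase that activates Pma1, was called higher at 24 h (0.90 ± 0.23) and 48 h (0.73 ± 0.46) and was at -0.01 ± 0.35 at 72 h. AST1, which helps Pma1 reach the surface, was called higher at 48 h (0.85 ± 0.28) and 72 h (0.54 ± 0.14), and HSP30, a heat shock protein that restrains Pma1, was called lower at 72 h (-0.70 ± 0.30).

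Of the 7 tested genes of the PMA1 list, 4 fell for 72 h minus 48 h, against 16.3% of all ORFs, with a median of -0.56, beside 0.01 over all ORFs. They were PMP1 (by 1.09, adjusted p = 0.00189), HSP30 (by 0.96, adjusted p = 0.00271), PTK2 (by 0.74, adjusted p = 0.0202) and HRK1 (by 0.56, adjusted p = 0.0140), a kinase that, like PTK2, acts on Pma1. Activating and restraining factors were thus both among them. Against 9.16% of all ORFs, 3 of the 7 fell for 72 h minus 24 h. PMP1 fell by 1.21 (adjusted p = 0.00353), PTK2 by 0.91 (adjusted p = 0.0202) and HRK1 by 0.61 (adjusted p = 0.0237). PMP1 exceeded PMA1 in ratio at 24 h by more than the SD of either gene.

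**Figure D4:**
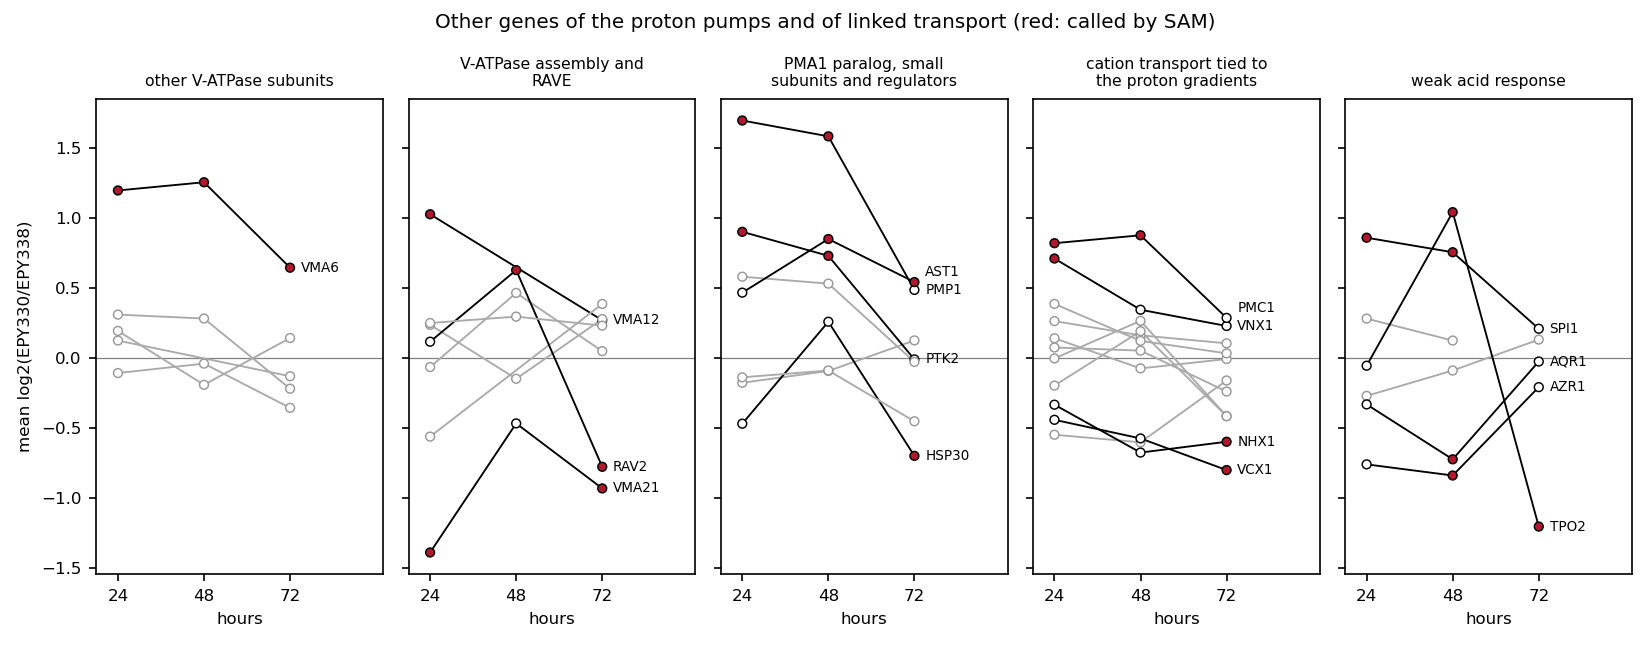
Mean log2(EPY330/EPY338) (vertical axis) at 24, 48 and 72 h (horizontal axis) of the genes in 5 lists around the pumps, 1 line per gene with at least 3 slides at a time point. Red points were called by SAM, genes with a call are named, and a line that skips 48 h had fewer than 3 slides there. VMA6 and PMP1 start highest in their lists (1.19 and 1.69), and TPO2 goes to -1.20 at 72 h.

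Of 11 genes for cation transport, 2 were called higher at 24 h (11.6% of all ORFs were), PMC1 (0.82 ± 0.19), the vacuolar calcium ATPase, and VNX1 (0.71 ± 0.17), a vacuolar cation/proton exchanger. PMC1 was called again at 48 h (0.87 ± 0.58). At 72 h, VCX1 (-0.80 ± 0.19), the vacuolar calcium/proton exchanger, and NHX1 (-0.60 ± 0.09), the endosomal sodium/proton exchanger, were called lower, against 8.75% of all ORFs. With the trend removed VNX1 was at 0.26 at 24 h. For 72 h minus 48 h, 1 gene of the 11 rose (TOK1, a potassium channel, by 0.44, adjusted p = 0.0310) and 1 fell (NHA1, the plasma membrane sodium/proton antiporter, by 0.68, adjusted p = 0.0355), with a median of -0.12 over the list. Over all ORFs 13.9% were higher and 16.3% lower in this difference.

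Of 7 genes known from weak acid responses, 6 were in the table, and TPO3 was not analysed here. SPI1, which encodes a cell wall protein, was called higher at 24 h (0.86 ± 0.14) and 48 h (0.75 ± 0.15) and averaged 0.21 ± 0.40 at 72 h. TPO2, for a polyamine exporter, was called higher at 48 h (1.04 ± 0.24) and lower at 72 h (-1.20 ± 0.50), and between these it fell by 2.24 (adjusted p = 3.5e-05). AQR1 (-0.72 ± 0.26) and AZR1 (-0.84 ± 0.42), for acid and azole exporters of the major facilitator superfamily, were called lower at 48 h, as were 10.4% of all ORFs, and 2 of the 6 were called higher (12.8% of all ORFs). Of the 5 genes tested for 72 h minus 48 h, 2 rose (AQR1 and AZR1, against 13.9% of all ORFs) and 2 fell (SPI1 and TPO2, against 16.3%), with a median of 0.22.

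The trend along ORF names moved the members unevenly. Taking it out shifted the 30 member means by a median of 0.13 and at most 0.32, and 4 of them, all within 0.2 of 0 as deposited, changed sign. With the trend removed 9, 9 and 2 of 10 members were positive at 24, 48 and 72 h, with medians of 0.42, 0.35 and -0.13. PMA1 and VMA3 then were closer to 0 at both early time points and VMA16 farther from it. What the trend stems from was not tested.

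**Figure D5:**
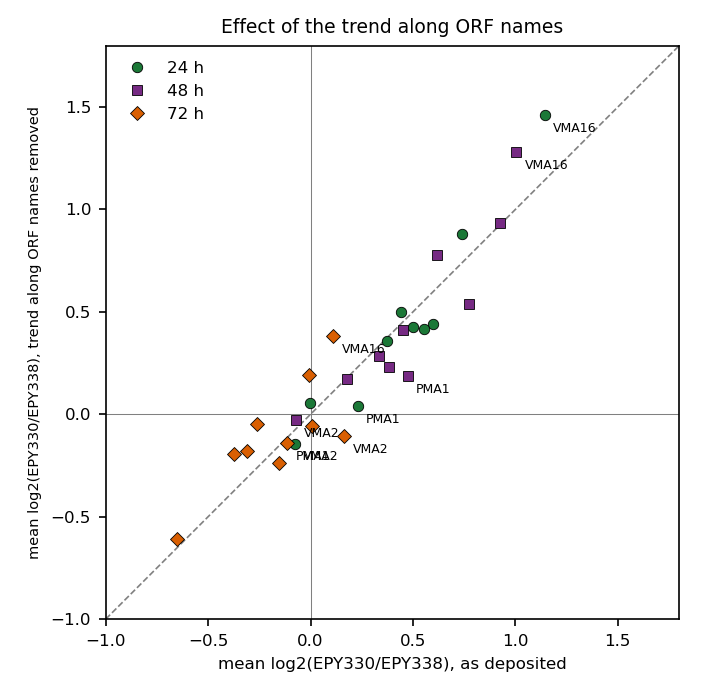
Mean log2(EPY330/EPY338) of the 10 genes at 3 time points as deposited (horizontal axis) and after removal of the trend along ORF names (vertical axis). Each point is 1 gene at 1 time point and the dashed line marks equal values. VMA16 lies above the line (1.14 and 1.46 at 24 h) and PMA1 at 48 h below it (0.47 and 0.18).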

How the data were processed

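Spot intensities came from GenePix Pro 6.1. The authors discarded artifacts and spots weak in both channels, applied lowess within slides (BRB-ArrayTools 3.5.0) and deposited 1 log2 ratio per ORF and slide, per the slide titles of EPY338 (Alexa647) over EPY330 (Alexa555). How duplicate spots were merged is not given in the sources used here. Lowess centers each slide, so values are relative to the other ORFs of the slide, and a change shared by all transcripts would not be seen.

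The sign was turned and the slides of a time point averaged per ORF. ORFs with at least 3 slides entered one-class SAM (median FDR of at most 0.2%) with missing values filled from the 10 nearest ORFs, which concerned none of the 10 pump genes. Differences between time points were fitted in limma 3.58.1 (R 4.3.3) on all 14 slides with time point as group. The mean over time points used 1 value per time point. Tests are two-sided with Benjamini-Hochberg adjustment over all ORFs at 0.05. Slides of different time points come from the same transformants, so these tests do not measure the spread between clones. SAM was computed in Python 3.11.15 with numpy 2.4.6. Tables and figures were made with pandas 2.3.3 and with matplotlib 3.10.9. SAM and the limma fits of the mean and of a difference between time points were run on simulated data. The planted shifts were larger than any mean or difference of a member, and the noise held no trend along ORF names. How well effects of the size reported here are recovered was therefore not tested.

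The members and the 5 lists around them were chosen with earlier results of these data known. All 10 members are named. From the lists, genes are named that were called by SAM or had a mean log2 ratio beyond 1 at a time point. Others are named as partners of a member or for passing a difference between time points. The 3 most similar profiles are given for PMA1 and VMA16. Gene names came from the RefSeq annotation, which matched 5546 of the ORFs. Promoters, motifs and protein sequences were not analysed here.

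To estimate the trend along ORF names, each ORF was given the median of neighbors in the sorted table at distances of 1 to 6, of 44 to 50 and of 91 to 97 rows in both directions. The other alternatives were missing values left as gaps, ORFs with a value on every slide, an FDR of 1%, limma within a time point with a limit of 0.002 on the adjusted p, a limit of 0.01 for differences between times, slides centered on their median, the median of slides, the replicate letter as a block, the 2 time points alone, and leaving out each slide. Whether slide sets stayed apart with the trend removed was examined after the data were seen.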

Additional observations from a re-analysis of the deposited data

Results flagged for a closer look

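VPH1 at 72 h had 1 slide far from the others. Replicate C was at -0.29 while the other 4 slides lay between 0.03 and 0.15, a gap of 0.734 of the range. Of the 30 sets of slides examined (10 genes at 3 time points) this was the 1 set with such a slide, and chance marks about 1 set in 20.

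The strain ratio of 7 genes differed between 72 and 48 h in limma, by -0.59 for PMA1, -0.55 for VMA1, -1.19 for VMA8, -1.04 for VMA5, -0.44 for VPH1, -1.08 for VMA3 and -0.90 for VMA16 (adjusted p between 0.00252 and 0.0366). It differed between 72 and 24 h for 4 genes, by -1.25 for VMA5, -0.50 for VPH1, -0.86 for VMA3 and -1.03 for VMA16 (adjusted p between 0.00344 and 0.0483). Each difference was lower at the later time point. The 72 h slides of VMA16 were negative on A to C and positive on D and E, and the part of the slides in these differences was not tested beyond leaving out each slide in turn.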

How the results depend on the processing

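Of the members called by SAM, those at 24 h numbered 2 as given, 1 with missing values left as gaps, 4 with the trend along ORF names removed and 1 to 2 without 1 slide. At 48 h they numbered 3 as given, 0 with gaps, 0 by limma on slides and 1 to 5 without 1 slide. At 72 h they numbered 1 as given, 0 with gaps, 2 at an FDR of 1% and 0 to 1 without 1 slide. With gaps, SAM called 549, 132 and 384 ORFs at 24, 48 and 72 h against 1000, 1330 and 1279 with the gaps filled, although no member had a gap. The other alternatives moved the calls over all ORFs too. SAM called 1682 of 5861 ORFs at 24 h with the trend removed, and 2103 of 5945 at 72 h at an FDR of 1%. Without 1 slide it called 442 to 961 ORFs at 24 h, 445 to 1821 at 48 h (most without slide B) and 357 to 904 at 72 h. In the mean over the time points, 0 members passed as given, 1 (VMA16) with the trend removed and 0 to 1 without 1 slide. For 72 h minus 48 h, 7 members passed as given, 3 (VMA3, VMA5 and VMA8) at an adjusted p under 0.01 and 5 to 9 without 1 slide. For 72 h minus 24 h, 4 passed as given, 2 (VMA5 and VMA16) with the trend removed, 1 (VMA5) at an adjusted p under 0.01 and 1 to 6 without 1 slide. The replicate letters name slides of the same pools. Of the 13 pairs of slides from different time points with the same letter, 6 correlated above 0.1 (range -0.559 to 0.670), namely all 3 pairs of letter A and all 3 of letter D, and in 3 the same letter was the best match. Since this did not hold for letters B, C and E, the letters were not taken to pair the slides. With the letter as a replicate block, 6 members passed for 72 h minus 48 h (VPH1 was lost) and 5 for 72 h minus 24 h (VPH1 was lost, VMA4 and VMA13 were gained). For the mean and the differences between time points, the share of all ORFs was not counted under the alternatives.

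No called member value changed sign under any alternative run. Uncalled values near 0 did. With the trend removed these were VMA1 at 24 h (0.0547), VMA2 (-0.109), VMA4 (0.193) and VPH1 (-0.0591) at 72 h, the means over time of VMA1 (0.0116) and VMA2 (-0.0932) and VMA2 for 72 h minus 48 h (-0.0806). VMA1 at 24 h was 0.0040 with slides centered, and the mean of VMA2 was -0.0224 with the median of slides. Without 1 slide, VMA1 at 24 h ran between -0.0350 and 0.0391, VMA4 at 72 h between -0.123 and 0.0987, VPH1 at 72 h between -0.0296 and 0.0816, VMA16 at 72 h between -0.0236 and 0.263 and the mean of VMA2 between -0.0180 and 0.0289. For 48 h minus 24 h the ranges without 1 slide were -0.0399 to 0.0727 for VMA2, -0.228 to 0.125 for VMA4, -0.137 to 0.0366 for VMA13, -0.121 to 0.0205 for VPH1 and -0.252 to 0.0138 for VMA16. The causes were not tested. With no intensities, the signal of a spot over background was not assessed, and a gene without a call is not shown to be unchanged.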
